A study of Mus musculus with 19 samples.

Results

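Mpo, Elane, Prtn3, Ctsg, Ms4a3 and Fcnb are genes of granulocyte precursors, and most of them encode contents of the primary granule. They were taken by name from the deposited table of counts and FPKM, where they are 6 of 36682 genes. All 6 passed the filter on low counts, which left 22778 genes. Expression was measured by stranded poly(A) RNA sequencing of dorsal root ganglia, which hold the cell bodies of sensory neurons, with the ganglia L3 to L5 of each mouse pooled. The 19 male mice were all homozygous for MaFIA (macrophage Fas-induced apoptosis), a transgene in which the Csf1r promoter drives a Fas death receptor that the drug AP20187 dimerizes, so that every group, vehicle groups included, carried it. The groups were DMM with AP20187 (mice 58 to 62, n = 5), DMM with vehicle (mice 32, 33, 34, 63 and 64, n = 5), naive with AP20187 (mice 1, 3, 4 and 5, n = 4) and naive with vehicle (mice 1 to 5, n = 5). DMM is surgical destabilization of the medial meniscus, a model of knee osteoarthritis, and treatment followed 8 weeks after it, as 1 intraperitoneal injection per day for 5 days. Naive mice were age-matched and had no surgery, and their ages are not given in the sources used here.

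Neutrophils are made in bone marrow. At the promyelocyte stage the cell transcribes the genes of the primary, or azurophil, granule, which holds myeloperoxidase and a family of serine proteases. As the cell matures these transcripts are lost and the genes of secondary granules, such as Ltf, and then of the mature cytosol, such as S100a8, take over. A circulating neutrophil carries primary granule protein but little of its mRNA. The transcripts are therefore used as marks of immature granulocytes.

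The genes lie on 5 chromosomes (GRCm39, the build named in the submitters' processing notes). Mpo is on chromosome 11 (87684407 to 87695239, plus strand) and encodes myeloperoxidase, which makes hypochlorous acid from hydrogen peroxide. Elane (chromosome 10, 79722081 to 79724049, plus strand) encodes neutrophil elastase, and its neighbour Prtn3 (chromosome 10, 79710310 to 79719008, plus strand) encodes proteinase 3. Ctsg (chromosome 14, 56337338 to 56340031, minus strand) encodes cathepsin G, the third serine protease of the granule. Ms4a3 (chromosome 19, 11606860 to 11618198, minus strand) encodes a membrane protein of the MS4A family that marks granulocyte and monocyte progenitors. Fcnb (chromosome 2, 27966390 to 27974897, minus strand) encodes ficolin B, a lectin that recognises sugars on microbes.

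The bases just upstream of 5 of these genes are shown because all 6 were higher with AP20187, and because they include the neighbours Elane and Prtn3, which both hold a PU.1 core. All 6 genes matched the RefSeq promoter table (GRCm38.p6). The window searched on both strands was the 120 bases before the RefSeq start, and each line gives the part of it that lies upstream of every annotated GENCODE start of the gene, which leaves no base for Mpo. Capitals mark whole matches of either orientation to a C/EBP motif (TTGCNNAA), a PU.1 core (GAGGAA), a MYB motif (AACNG) or a RUNX motif (TGTGGT).
Elane (chr10:79886192-79886246, plus strand): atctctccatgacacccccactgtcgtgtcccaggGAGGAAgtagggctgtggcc
Prtn3 (chr10:79879547-79879613, plus strand): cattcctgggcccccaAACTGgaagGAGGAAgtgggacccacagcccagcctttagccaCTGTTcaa
Ctsg (chr14:56102575-56102694, minus strand): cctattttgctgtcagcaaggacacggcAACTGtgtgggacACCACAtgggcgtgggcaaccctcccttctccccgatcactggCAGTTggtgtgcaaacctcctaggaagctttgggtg
Ms4a3 (chr19:11640852-11640971, minus strand): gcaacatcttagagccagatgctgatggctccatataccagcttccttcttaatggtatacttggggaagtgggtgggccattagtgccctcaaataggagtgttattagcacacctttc
Fcnb (chr2:28084886-28084998, minus strand): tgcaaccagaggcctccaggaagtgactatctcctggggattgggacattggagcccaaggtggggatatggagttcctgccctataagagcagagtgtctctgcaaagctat

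The PU.1 core lay at -85 to -80 from the RefSeq start of Elane and at -95 to -90 from that of Prtn3, and none of the other 4 genes had it in the window. The most upstream GENCODE start lies 65 bases before the RefSeq start in Elane and 53 bases before it in Prtn3, so the distances depend on the start used. Of 32851 promoters in the table, 11.6% held it. The MYB motif was in the window of Elane, Prtn3 and Ctsg and in 46.9% of all promoters, and the RUNX motif was in that of Ctsg and in 6.72%. The C/EBP motif, present in 4.15% of promoters, was in none of the 6 windows. The MYB matches of Elane, at -50 to -46 and -20 to -16, lie nearer the start than the stretch shown. No 2 of these motifs overlapped in the stretches shown. A match describes the letters and is not evidence of binding.

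Libraries held 60984830 to 74691396 counts in all, and levels are given in CPM, TMM-scaled counts per 1e+06 counts of the library. Csf1r, whose promoter drives the transgene, did not pass the test between AP20187 and vehicle (by edgeR, log2 fold change -0.02 with adjusted p 0.982 after DMM, and 0.45 with adjusted p 0.554 in naive mice). Sensory neuron markers were present in every library, at a summed 1201 to 6888 CPM over 7 genes. The libraries of DMM with vehicle differed widely among themselves. Mouse 64 had the highest sum of primary granule, secondary granule, mature neutrophil, erythroid and megakaryocyte transcripts of that group, and mouse 32 the lowest sum of the same lists. The numbers 32 to 34 and 63 to 64 look like separate series, but no label calls them batches. For most genes named below, DMM log2 fold changes that passed are therefore also given without mouse 64, and those that did not pass against mice 63 and 64 alone are given with that value. The fits against mice 63 and 64 alone hold fewer vehicle mice, which by itself makes calls harder to reach. A call lost there therefore says little about the gene.

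All 6 primary granule genes were higher with AP20187 than with vehicle, in DMM and in naive mice alike, and their groups did not overlap in either comparison. Group means differed by 6.15-fold (Fcnb) to 17.8-fold (Ctsg) in DMM and by 6.86-fold (Fcnb) to 22.6-fold (Ctsg) in naive mice. By edgeR's quasi-likelihood test with Benjamini-Hochberg adjustment over all tested genes, 6 of 6 passed in DMM, where 23.8% of all genes were called, 11.3% higher and 12.4% lower. The count was 6 of 6 in naive mice too, where 11.2% of all genes were called, 8.61% higher and 2.57% lower. In DMM 8.71% of all genes had every AP20187 library above every vehicle library, and in naive mice 9.39% did.

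**Figure D1:**
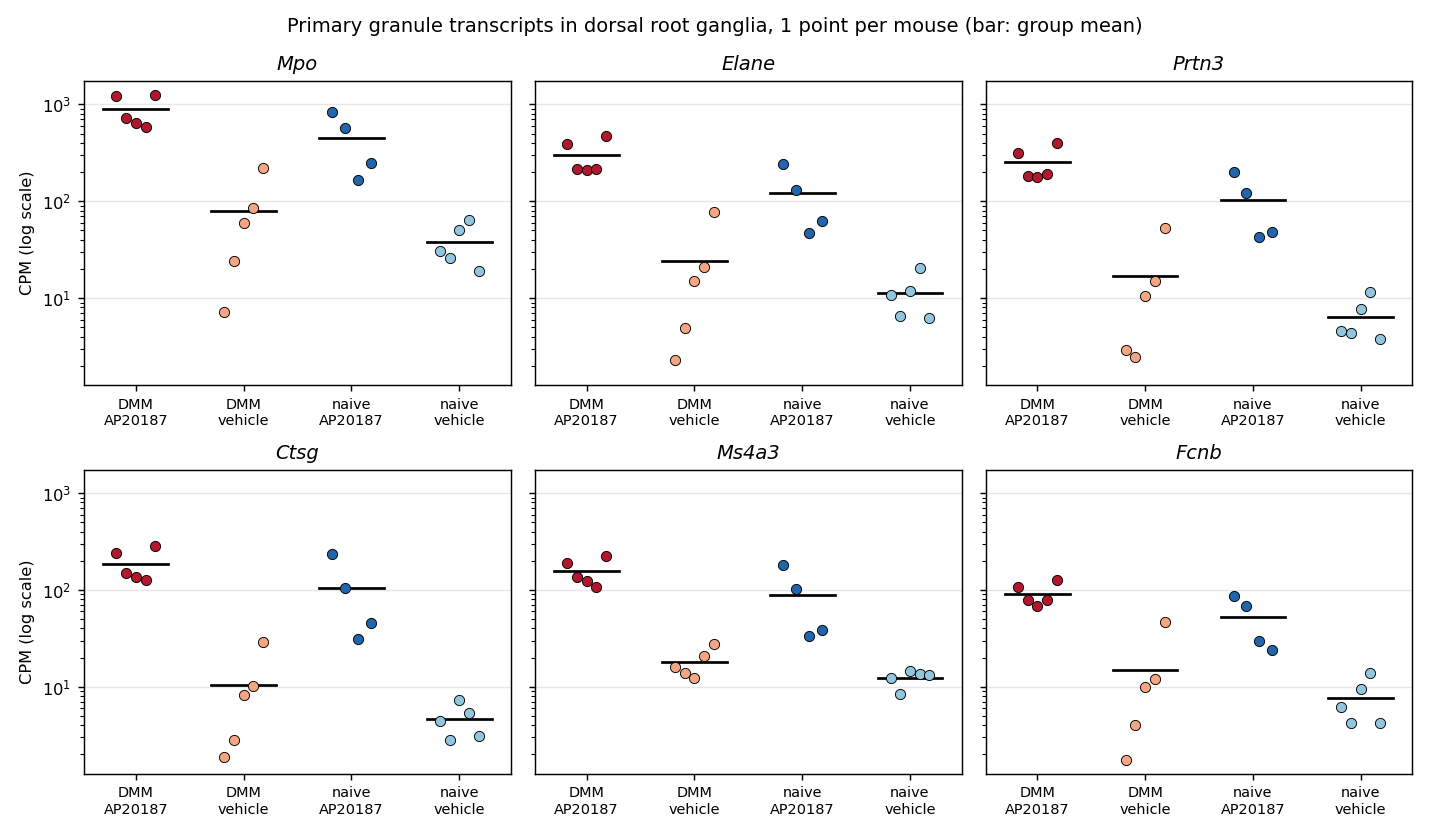
Level of each of the 6 genes in CPM (log axis) in the 19 mice, 1 point per mouse, with bars at the group means. In each panel every AP20187 point lies above every vehicle point of the same surgery group, and the points of DMM with vehicle are the most spread, except for Ms4a3.

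Mpo was at 1225, 729.9, 644, 581 and 1254 CPM in DMM AP20187 mice 58 to 62. It was at 7.22, 23.9, 59.4, 84.5 and 218 CPM in DMM vehicle mice 32, 33, 34, 63 and 64. Each treated mouse was above each vehicle mouse, and the lowest treated mouse was 2.66 times the highest vehicle mouse, mouse 64. In naive mice given AP20187 (1, 3, 4 and 5) Mpo was at 834, 573, 165 and 245 CPM. In naive vehicle mice 1 to 5 it was at 31.0, 25.8, 51.0, 64.1 and 19.1 CPM. Mice 1 and 3 were the high pair of the treated naive group, and mice 4 and 5 lay between them and the vehicle mice. By edgeR, the log2 fold change with treatment was 3.50 (SE 0.69, adjusted p 0.00246) for DMM mice and 3.57 (SE 0.71, adjusted p 0.00424) for naive mice.

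Of the serine proteases, Prtn3 and Ctsg had larger fitted changes than the other 4 genes, and Elane lay close to Mpo. Elane was at 389.5, 216, 209, 216 and 471 CPM in treated DMM mice and at 2.31, 4.94, 15.04, 20.9 and 76.6 CPM in DMM with vehicle, in the order of mice used for Mpo. In naive mice Elane was at 242, 131, 47.1 and 62.9 CPM with AP20187 and at 10.9, 6.52, 11.9, 20.4 and 6.23 CPM with vehicle. Mice 58 and 62 were again the highest of DMM with AP20187, and mouse 64 was the highest of DMM with vehicle. By edgeR, the log2 fold change of Elane with treatment was 3.65 (SE 0.74, adjusted p 0.00301) for DMM mice and 3.43 (SE 0.76, adjusted p 0.00809) for naive mice.

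Prtn3, the neighbour of Elane, was at 315, 183, 179, 190.0 and 396 CPM in treated DMM mice and at 2.95, 2.46, 10.5, 15.02 and 52.6 CPM in DMM with vehicle. In naive mice it was at 201, 123, 42.3 and 48.4 CPM with AP20187 and at 4.59, 4.38, 7.80, 11.4 and 3.78 CPM with vehicle. The lowest treated mouse was 3.41 times the highest vehicle mouse in DMM and 3.71 times in naive mice. By edgeR, the log2 fold change of Prtn3 with treatment was 3.92 (SE 0.73, adjusted p 0.00158) for DMM mice and 4.02 (SE 0.75, adjusted p 0.00297) for naive mice. Prtn3 shares 159 bases with Plppr3 on the opposite strand, a gene at a mean of 19.2 CPM whose own log2 fold change by edgeR was 1.10 with adjusted p 0.00115 after DMM, and 0.33 with adjusted p 0.290 in naive mice. The strand setting of the counting is not given in the sources used here, so reads in that stretch cannot be told apart. Mpo likewise contains the antisense gene Gm11505, which was at a mean of 0.262 CPM. The log2 fold change of Gm11505 by edgeR was 4.01 with adjusted p 0.0318 after DMM, and 2.74 with adjusted p 0.171 in naive mice.

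Ctsg, cathepsin G, had the largest fitted change of the 6 in both surgery groups with all mice in. It was at 239, 148, 135, 127 and 281 CPM in treated DMM mice and at 1.87, 2.85, 8.17, 10.2 and 29.3 CPM in DMM with vehicle. In naive mice Ctsg was at 234, 105, 31.2 and 45.4 CPM with AP20187 and at 4.44, 2.80, 7.25, 5.37 and 3.11 CPM with vehicle. The lowest treated mouse was 4.33 times the highest vehicle mouse in DMM and 4.30 times in naive mice. Fitted by edgeR, its log2 fold change came to 4.15 for DMM mice (SE 0.69, adjusted p 0.000727) and to 4.50 for naive mice (SE 0.71, adjusted p 0.00104). The intervals of the 6 genes overlap widely, as the plot of fitted differences shows, and the order of their changes was not tested in the fit.

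Ms4a3, the membrane marker of progenitors, varied least within the vehicle groups. It was at 15.9, 13.9, 12.4, 20.6 and 27.4 CPM in DMM with vehicle, where the highest mouse was 2.21 times the lowest, while the same mice spanned 15.7-fold (Ctsg) to 33.1-fold (Elane) in the other 5 genes. In DMM with AP20187 it was at 189, 134, 123, 108 and 223 CPM. In naive mice Ms4a3 was at 179, 102, 33.4 and 38.7 CPM with AP20187 and at 12.4, 8.33, 14.4, 13.7 and 13.4 CPM with vehicle. Its log2 fold change of 3.11 in DMM (SE 0.40) and 2.83 in naive mice (SE 0.40) came with the smallest adjusted p of the 6, 0.000101 and 0.000461 by edgeR.

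Fcnb, ficolin B, had the smallest change of the 6 with all mice in. It was at 108, 79.1, 67.7, 78.0 and 126 CPM in treated DMM mice and at 1.76, 4.03, 9.88, 11.998 and 46.9 CPM in DMM with vehicle. In naive mice it was at 87.4, 67.9, 29.6 and 24.01 CPM with AP20187 and at 6.18, 4.23, 9.39, 14.04 and 4.21 CPM with vehicle. Its lowest treated mouse was 1.44 times the highest vehicle mouse in DMM, the narrowest gap of the 6 genes. By edgeR, the log2 fold change with treatment was 2.62 (SE 0.65, adjusted p 0.00919) for DMM mice and 2.78 (SE 0.68, adjusted p 0.0143) for naive mice. Without naive AP20187 mouse 1 the latter was 2.41 with adjusted p 0.0544 (edgeR), which no longer passed. Ms4a3 then had the smallest change of the 6, at 2.22. The same held in DMM without vehicle mouse 64, with Ms4a3 at 3.31 and Fcnb at 3.73.

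**Figure D2:**
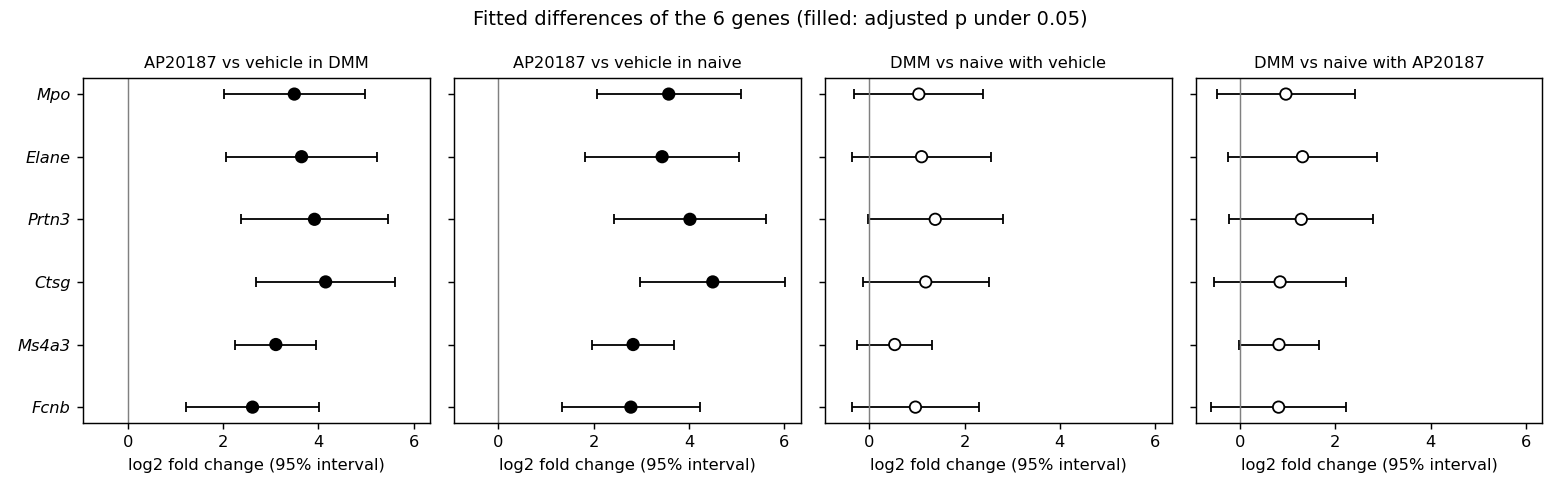
Fitted log2 fold changes of the 6 genes with 95% intervals, 1 panel per comparison, with filled points where the adjusted p was under 0.05. The points of both AP20187 comparisons lie between 2.62 and 4.50 and are filled, and those of both DMM against naive comparisons lie between 0.54 and 1.39 with intervals that reach 0 or below.

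The size of the DMM difference depended on which vehicle mice it was taken against. Without vehicle mouse 64 the 6 log2 fold changes were 3.31 (Ms4a3) to 5.03 (Prtn3), and 6 of 6 passed. Against vehicle mice 32 to 34 alone they were 3.47 (Ms4a3) to 5.57 (Prtn3), with 6 of 6 passing. Against mice 63 and 64 alone they were 1.62 (Fcnb) to 3.22 (Ctsg), and 5 of 6 passed, with Fcnb at an adjusted p of 0.148. Erythroid transcripts moved with this order within the vehicle group, at 1051, 1751, 4490.0, 7588 and 17722 summed CPM over 6 genes in mice 32, 33, 34, 63 and 64. In DMM with AP20187, by contrast, the same sum was 868 to 3592 CPM, and 2 of 6 erythroid genes, Hbb-bs and Hba-a1, were lower than with vehicle. With 1 mouse left out the count by edgeR was 0 (without vehicle mouse 64 or treated mouse 59, 60 or 62), 1 (without vehicle mouse 34 or 63 or treated mouse 61) or 4 (without vehicle mouse 32 or 33 or treated mouse 58). It was 4 against vehicle mice 63 and 64 alone and 0 against mice 32 to 34 alone. In naive mice none of the 6 passed by edgeR (0 at an unadjusted p under 0.05), and the sums were 1342 to 2683 CPM with AP20187 and 2197 to 8978 CPM with vehicle. The part of the erythroid transcripts in the primary granule result was not tested.

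In naive mice the treated library with the highest values carried part of the size. Without naive AP20187 mouse 1 the log2 fold changes were 2.22 (Ms4a3) to 3.72 (Ctsg), and 5 of 6 passed.

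The 6 genes together took 0.131% to 0.264% of all counts in DMM with AP20187, against 0.00315% to 0.0492% in the vehicle mice of that surgery group. The share in naive mice was 0.0340% to 0.166% with AP20187 and 0.00499% to 0.0130% with vehicle. In a bulk sample, more cells that carry these transcripts and more of the transcripts per cell cannot be told apart.

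Levels were compared between the genes by FPKM, which scales counts to gene length. In DMM with AP20187 Elane had the highest FPKM of the 6 in 5 of 5 libraries (mean 294 ± 108 SD), ahead of Mpo (251 ± 88.9), Ctsg (174 ± 59.2), Prtn3 (140 ± 48.5), Ms4a3 (79.7 ± 22.1) and Fcnb (66.1 ± 15.1). In naive mice with AP20187 Mpo led in 3 of 4 libraries, at 112 ± 71.3 FPKM against 103 ± 71.6 for Elane, a difference well inside the spread between mice. In DMM with vehicle the order was less fixed, with Mpo highest in 2 libraries, Ms4a3 in 2 and Elane in 1. Prtn3 was the lowest of the 6 in 3 of 5 libraries of DMM with vehicle and in 4 of 5 of naive with vehicle, and in none of the 9 treated libraries.

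The make-up of the set was read as the share of each gene in the summed FPKM of the 6. Ctsg was at 17.3 ± 0.401% (SD, n = 5) in DMM with AP20187 against 11.3 ± 1.16% with vehicle (n = 5). In naive mice it was at 18.5 ± 2.99% (n = 4) against 10.6 ± 2.06% (n = 5). Prtn3 took 13.98 ± 0.784% against 9.43 ± 2.54% in DMM and 12.03 ± 0.645% against 8.43 ± 1.08% in naive mice. In both surgery groups the Ctsg and Prtn3 shares of treated and vehicle libraries did not overlap. Elane, the largest share in DMM with AP20187, took 29.04 ± 1.44% there against 22.8 ± 6.84% with vehicle, and 24.8 ± 1.22% against 25.9 ± 3.36% in naive mice, with overlap in both. Fcnb had the lower mean share with treatment, 6.78 ± 0.826% against 11.1 ± 2.45% in DMM and 8.56 ± 2.23% against 12.7 ± 1.52% in naive mice, and its libraries overlapped in both. Ms4a3 held 47.8% of the set in vehicle mouse 32 and 5.81% in vehicle mouse 64, and it held 7.45% to 8.79% in DMM with AP20187, inside the range of the vehicle mice. Its naive shares did not overlap, at 8.35% to 9.57% with AP20187 and 10.5% to 25.9% with vehicle. Mpo had mean shares of 24.3% to 27.0% in the 4 groups. These shares are descriptions and carry no test of their own.

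**Figure D3:**
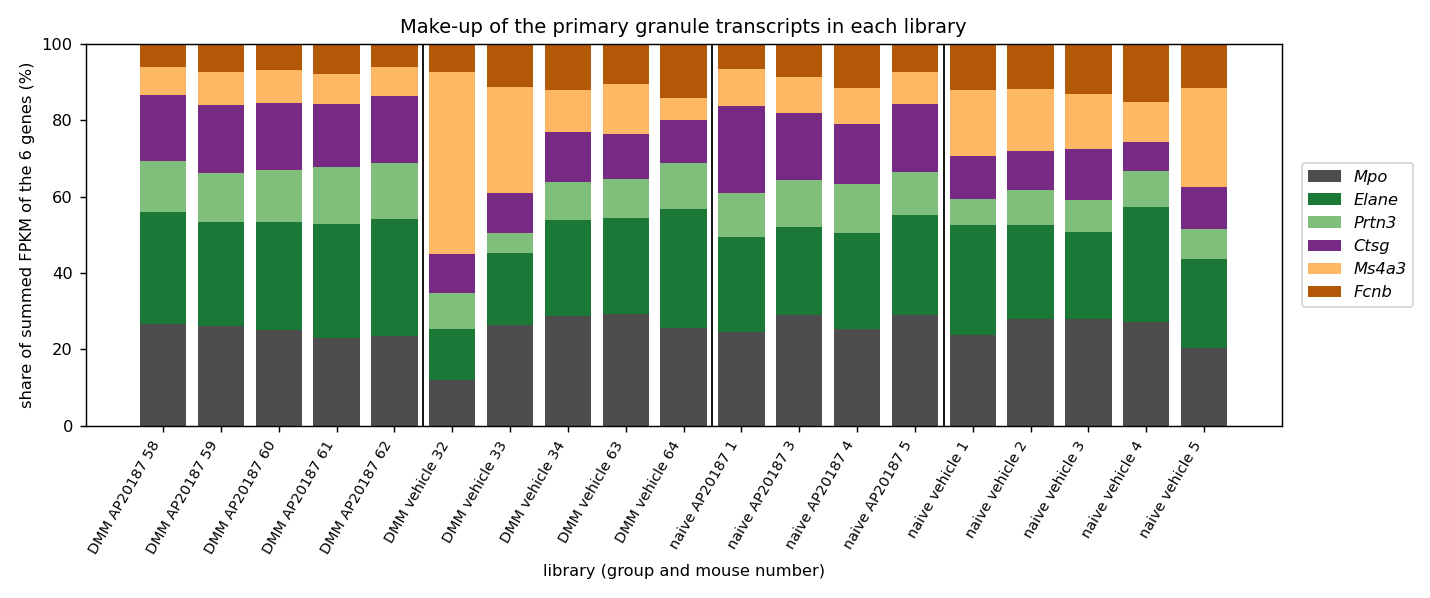
Share of the summed FPKM of the 6 genes taken by each gene (percent) in each of the 19 libraries, 1 bar per library. Ms4a3 takes 47.8% of the bar in DMM vehicle 32 and 27.8% in DMM vehicle 33, while the 5 bars of DMM with AP20187 are nearly alike.

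The genes were next set against transcripts of later neutrophil stages, Ltf (lactoferrin, secondary granules) and S100a8 (a calcium-binding protein of the mature cytosol). Log2 ratios of counts were compared by two-sided exact permutation tests over mice, 24 tests adjusted together, in which the smallest p possible was 0.00794 in DMM and 0.0159 in naive mice. Of the 12 ratios in DMM, 6 passed, and of the 12 in naive mice, 3 passed. In DMM Prtn3 and Ctsg were higher with AP20187 relative to both references, and Elane relative to S100a8. Ctsg to Ltf was -5.12 ± 0.278 with AP20187 and -5.85 ± 0.131 with vehicle, a difference of 0.73 (exact permutation test, adjusted p 0.0381). Prtn3 to Ltf differed by 0.73 too (adjusted p 0.0423, exact permutation test), but this call held in 2 of the 10 fits with 1 DMM mouse left out, those without treated mouse 60 or vehicle mouse 32. In the other 8 its adjusted p was 0.0693 to 0.0762 by the exact permutation test, with differences of 0.57 to 0.81. Relative to S100a8, the differences were 0.70 for Elane, 0.90 for Prtn3 and 0.91 for Ctsg (exact permutation test, adjusted p 0.0381 each). These 3 and Ctsg to Ltf passed with each DMM mouse left out, and without vehicle mouse 64 they were 0.76, 0.93, 0.83 and 0.72. With Ngp and S100a9 as the references, Elane, Prtn3 and Ctsg were higher relative to both, by 0.84 to 1.04 (exact permutation test, adjusted p 0.0317 each), and Mpo to Ngp passed as well, at 0.53 (adjusted p 0.0381).

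Fcnb went the other way. Its ratio to Ltf was lower with AP20187, with a difference of -0.57 in DMM (exact permutation test, adjusted p 0.0381) and of -1.08 in naive mice (exact permutation test, adjusted p 0.0423). In naive mice the ratios to S100a8 of Fcnb (difference -1.61) and of Ms4a3 (difference -1.84) were lower as well (exact permutation test, adjusted p 0.0423 each). No protease ratio passed in naive mice, where the differences ran from -1.07 (Elane to S100a8) to 0.34 (Ctsg to Ltf). The Ms4a3 ratios did not pass in DMM (-0.88 to Ltf and -0.71 to S100a8), and their sign rested on the vehicle mice used: without mouse 32 they were -0.40 and -0.27, and against mice 63 and 64 alone 0.10 and 0.42. Whether DMM and naive mice differ in these ratios was not tested. In DMM the Fcnb call held with each mouse left out (-0.50 without vehicle mouse 64), but it depended on the reference: relative to Ngp and to S100a9 the difference was -0.26 for both and did not pass (exact permutation test, adjusted p 0.178 each). In naive mice Fcnb passed relative to Ngp (-0.97) and S100a9 (-1.40), and Ms4a3 relative to S100a9 (-1.62), each with adjusted p 0.0381 by the exact permutation test. With 1 naive mouse left out the smallest p possible was 0.0286 or 0.0357 and none of the naive ratios passed, a loss that says nothing about their stability. The differences were then -0.97 to -1.22 for Fcnb to Ltf, -1.48 to -1.88 for Fcnb to S100a8 and -1.56 to -2.13 for Ms4a3 to S100a8.

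**Figure D4:**
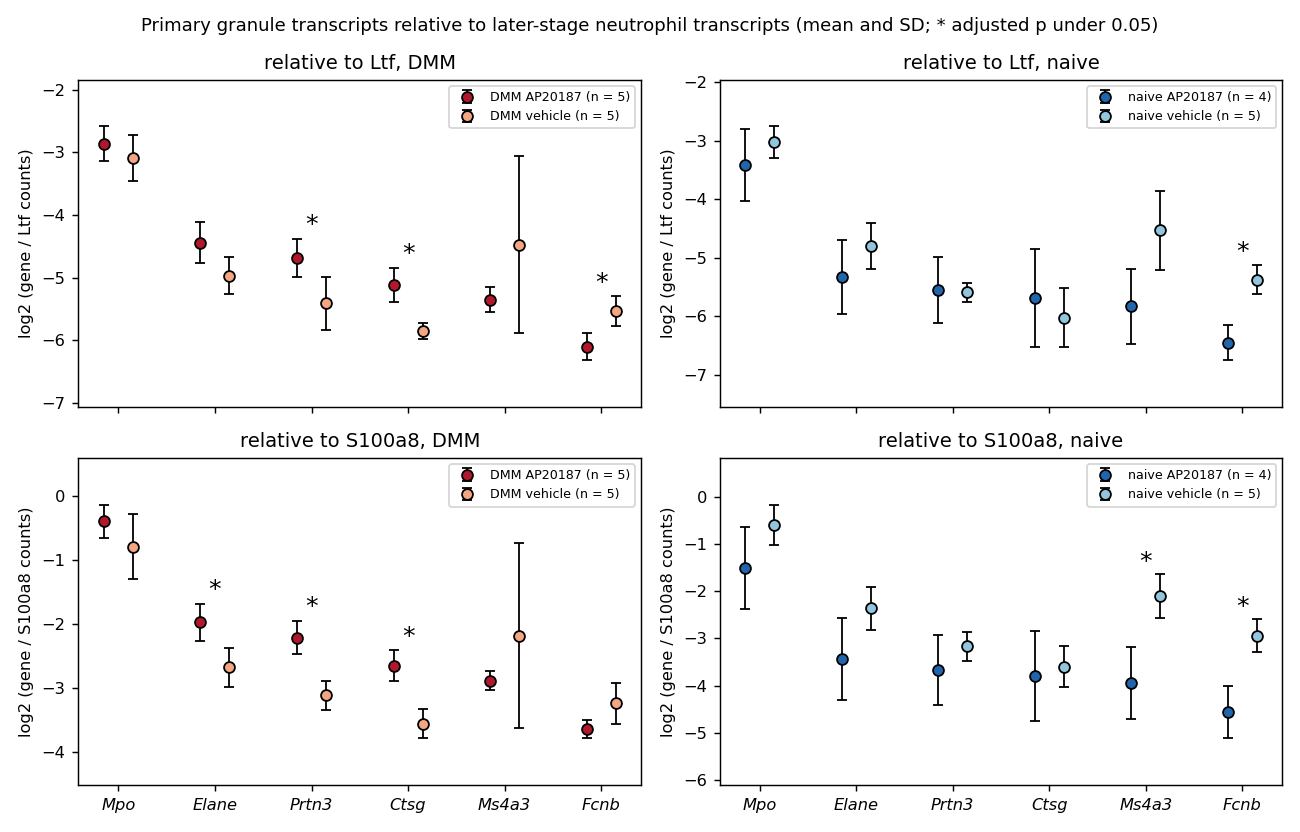
Log2 ratio of the counts of each of the 6 genes to those of Ltf (top) and S100a8 (bottom) in DMM (left) and naive mice (right), as mean and SD over mice, with an asterisk where the adjusted p of the exact permutation test was under 0.05. In DMM the treated points of Elane, Prtn3 and Ctsg lie above the vehicle points, and in all 4 panels those of Ms4a3 and Fcnb lie below, for Ms4a3 in DMM with a wide vehicle SD.

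Other genes of the primary granule, its packing and its control were read from lists. Among 5 other primary granule contents, 3 were higher with AP20187 in DMM and 3 in naive mice, with medians of 1.24 and 1.37 against -0.10 and -0.07 over all tested genes. Here and for the lists that follow, values are log2 fold changes between AP20187 and vehicle, in DMM and then in naive mice. Gusb, the lysosomal beta-glucuronidase, rose by 1.24 and 1.28 (adjusted p 0.00287 and 0.00543, edgeR), and Mgst1, a glutathione transferase, by 1.39 and 1.37 (adjusted p 0.0193 and 0.0401, edgeR). The third was Prss57, a further serine protease of this granule, with log2 fold changes of 3.96 and 3.70 (adjusted p 0.000982 and 0.00304, edgeR). Lyz2 and Cd63, which many cell types express, did not pass, at 1.12 and 0.83 in DMM and at 1.72 and 0.87 in naive mice (adjusted p 0.0532 and 0.124 in naive mice, edgeR), though all 5 genes had an unadjusted p under 0.05 in both. In naive mice Lyz2 passed without treated mouse 5 (1.90, adjusted p 0.0384, edgeR) or vehicle mouse 3 (1.96, adjusted p 0.0455), and the count of the list was 2 to 4 with 1 mouse left out. Without vehicle mouse 64, 5 of the 5 passed in DMM, with Gusb at 1.54, Mgst1 at 1.87, Prss57 at 4.73, Lyz2 at 1.93 and Cd63 at 1.24. Only Prss57 of the 5 passed against mice 63 and 64 alone, with Gusb at 0.71 (adjusted p 0.137, edgeR) and Mgst1 at 0.61 (adjusted p 0.414). Mgst1 no longer passed in naive mice without treated mouse 1 or 3 or vehicle mouse 1, 2, 4 or 5 (adjusted p 0.0506 to 0.139, edgeR).

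Of 8 genes of granule packing and protease activation, 7 were higher in DMM and 6 in naive mice, and without vehicle mouse 64 the DMM count was 8. Srgn, the proteoglycan serglycin on which granule proteases are packed, rose by 2.12 in DMM and 2.10 in naive mice (adjusted p 0.00597 and 0.0135, edgeR). Rab27a, a GTPase of granule release, rose by 1.75 and 1.29, and Calr, a chaperone of myeloperoxidase, by 0.94 and 1.07. Ctsc, the protease that activates Elane, Prtn3 and Ctsg, had log2 fold changes of 1.05 and 1.15 and passed in neither (adjusted p 0.0635 and 0.0836, edgeR). Without vehicle mouse 64 it passed in DMM (1.37, adjusted p 0.0152), as it did without treated mouse 61, and it passed in naive mice without vehicle mouse 3 (1.55, adjusted p 0.0242). Srgn, Rab27a and Calr were at 2.78, 1.87 and 0.99 without vehicle mouse 64. Against mice 63 and 64 alone 4 of the 8 passed, with Srgn at 1.31 (adjusted p 0.178, edgeR). Without naive AP20187 mouse 1 the naive count of this list was 3, with Srgn at 1.78 (adjusted p 0.0575, edgeR).

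Of 5 inhibitors of these proteases, 2 were higher in each surgery group. Serpinb1a, a cytosolic inhibitor of elastase and cathepsin G, rose from 107 ± 14.6 to 537 ± 143 CPM in DMM (log2 fold change 2.33, adjusted p 6.3e-05, edgeR) and from 92.02 ± 23.9 to 339.8 ± 163 CPM in naive mice (1.88, adjusted p 0.000823). Cst7, cystatin F, was the other, at 3.17 and 3.91. Serpinb1a and Cst7 were at 2.40 and 4.11 in DMM without vehicle mouse 64, and against mice 63 and 64 alone Cst7 was at 2.15 (adjusted p 0.0701, edgeR). Slpi was at 0.73 and 1.41, and Serpina3n at 0.42 and 0.31, without passing, but Slpi was at 1.87 in DMM without vehicle mouse 64 (adjusted p 0.00662, edgeR). Serpinb6a, which had the highest mean FPKM of the 5, went the other way without passing, at -0.32 and -0.33.

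Among 7 regulators of the promyelocyte stage, 4 were higher in DMM and 3 in naive mice. Cebpe, a transcription factor of the step from primary to secondary granules, was at 83.4 ± 31.1 against 10.4 ± 12.9 CPM in DMM and at 39.9 ± 22.5 against 4.599 ± 1.51 CPM in naive mice. Its log2 fold changes were 3.01 and 3.12 (adjusted p 0.00475 and 0.00830, edgeR). Spi1, which encodes PU.1, rose by 2.60 and 2.56, and Gfi1, a repressor needed for granulocytes, by 3.20 and 2.84. In DMM without vehicle mouse 64 Cebpe, Spi1 and Gfi1 were at 4.12, 3.48 and 3.88. These 3 did not pass against mice 63 and 64 alone, at 1.98, 1.66 and 2.36 (adjusted p 0.0597, 0.0950 and 0.0911, edgeR). Runx1 was at -0.35 and -0.48 and Csf3r, the G-CSF receptor, at 1.31 and 1.45, and neither passed. Csf3r was at 2.11 in DMM without vehicle mouse 64 (adjusted p 0.00407, edgeR).

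Of 10 surface and enzyme genes of myeloid progenitors, 6 were higher in each surgery group, among them Plac8 (2.67 and 3.48), Igsf6 (2.28 and 2.27) and Trem3 (2.88 and 3.18). Kit and Flt3, receptors of earlier progenitors, differed in the opposite direction. Which cells of the ganglion carried the Kit and Flt3 transcripts was not tested. Kit was lower in DMM, at 28.8 ± 10.5 against 68.6 ± 28.5 CPM (log2 fold change -1.25, adjusted p 0.0131, edgeR), and so was Flt3 (-1.38, adjusted p 0.0254). Flt3 no longer passed without treated mouse 58, 59 or 60 or vehicle mouse 33 (adjusted p 0.0547 to 0.0733, edgeR). In naive mice they were at -0.83 and -0.99 and did not pass. Cd34 was at 0.20 and 0.35, without passing. In DMM Plac8, Igsf6, Trem3, Kit and Flt3 were at 3.46, 2.95, 3.83, -1.45 and -1.50 without vehicle mouse 64. Of the 10 genes 1 passed against mice 63 and 64 alone, and none of these 5, which were at 1.78, 1.42, 1.90, -0.50 and -0.71 (adjusted p 0.0796 to 0.4998, edgeR).

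Later stages of the same lineage moved with the 6 genes. Of 8 secondary granule genes, 6 were higher in DMM and 7 in naive mice, with medians of 3.15 and 3.74. Lcn2 (3.59 and 4.43), Chil3 (3.91 and 3.75), Ngp (2.99 and 3.73) and Ltf (3.30 and 3.76) passed in both. Of 8 mature neutrophil genes, 6 were higher in each, among them S100a9 (2.95 and 4.34) and Mmp9 (2.16 and 2.35). Retnlg had 133 ± 35.6 CPM with AP20187 but 146 ± 178 CPM with vehicle in DMM, and Ly6g, the surface marker of mature neutrophils, had 13.4 ± 2.82 and 15.4 ± 17.1. Neither passed in DMM (log2 fold changes -0.13 and -0.20) or in naive mice (0.78 and 0.57). In DMM without vehicle mouse 64 Lcn2, Chil3, Ngp and Ltf were at 4.51, 4.68, 3.86 and 4.17, and S100a9 and Mmp9 at 3.91 and 3.01. Against mice 63 and 64 alone 4 of 8 secondary granule and 3 of 8 mature neutrophil genes passed, with Ngp at 2.05 (adjusted p 0.0503, edgeR), S100a9 at 1.98 (adjusted p 0.0858) and Mmp9 at 1.26 (adjusted p 0.203). The sign of Retnlg and Ly6g in DMM turned without vehicle mouse 64, to 0.96 for Retnlg and 0.73 for Ly6g. All 6 cell division genes of the proliferation list were higher in DMM and 5 of 6 in naive mice, with medians of 2.50 and 2.25. The naive count of that list was 3 without treated mouse 1 or vehicle mouse 2, and the DMM count was 1 against vehicle mice 63 and 64 alone. Mmp9 no longer passed in naive mice without treated mouse 3 or vehicle mouse 1 or 2 (adjusted p 0.0539 to 0.0763, edgeR).

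**Figure D5:**
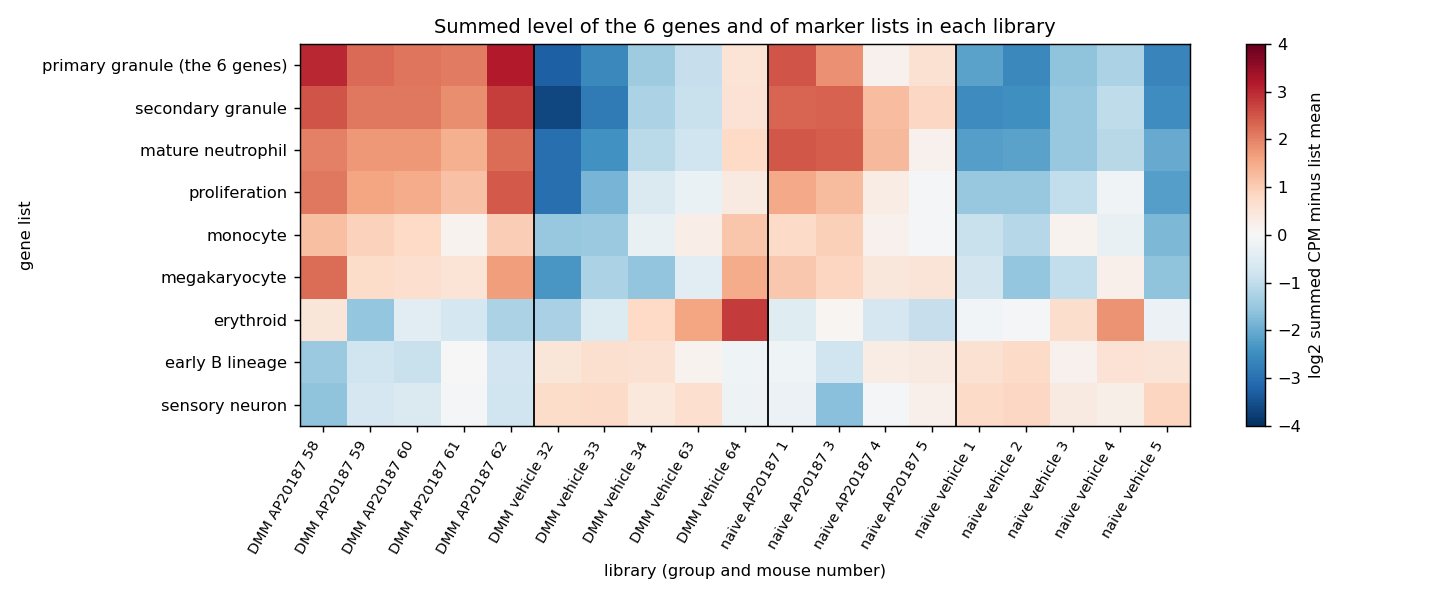
Summed CPM of the 6 genes and of 8 marker lists in each of the 19 libraries, as the log2 difference from the mean of the list over libraries (colour), with black lines between groups. In the 3 granulocyte lists and the proliferation list each AP20187 library lies above each vehicle library of its own surgery group. Across surgery groups some cross. Naive AP20187 4 (the 6 genes 349 CPM, proliferation 424 CPM) lies below DMM vehicle 64 (451 and 446 CPM). Naive AP20187 5 (proliferation 329 CPM, mature neutrophil 1907 CPM) also lies below DMM vehicle 64 (446 and 2922 CPM). Erythroid transcripts are highest in DMM vehicle 64.

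Markers of other cell types were read from lists in the same way. Of 6 monocyte genes, 3 were higher and 1 lower in DMM and 2 were higher and 1 lower in naive mice, the lower being Ccr2, the receptor of inflammatory monocytes (-2.59 and -2.05), which was at -2.06 in DMM without vehicle mouse 64. Against mice 63 and 64 alone 1 of the 6 passed. In naive mice Ccr2 did not pass without treated mouse 1, 4 or 5 or vehicle mouse 1, 3 or 4 (adjusted p 0.0570 to 0.0881, edgeR). Of 6 early B lineage genes, 4 were lower in DMM and 3 in naive mice. Mast cell genes, most of which encode proteases of mast cell granules, summed to 38.0 to 162 CPM in DMM with AP20187 and 17.9 to 122 CPM with vehicle, with 1 of 6 passing and a median of 0.64. In naive mice they summed to 40.9 to 107 and 11.7 to 51.4 CPM, again with 1 of 6 passing and a median of 1.37. Both counts were 0 to 2 with 1 mouse left out, and that of DMM was 0 against vehicle mice 63 and 64 alone. Of 6 satellite glia and Schwann cell genes, 3 were lower in DMM, among them Sox10 (-0.77) and S100b (-0.79), with a list median of -0.61. The count was 2 without vehicle mouse 64 and 1 against mice 63 and 64 alone. In naive mice none passed by edgeR (0 at an unadjusted p under 0.05) and the median was 0.12, and none of the 6 passed in the interaction (2 at an unadjusted p under 0.05). Their sums were 1830 to 4003 CPM with AP20187 and 2857 to 5950 with vehicle in DMM, and 3356 to 4523 and 2520 to 4850 in naive mice, with overlap in both. Of 3 basophil genes, none passed in DMM by edgeR (0 at an unadjusted p under 0.05), DESeq2 or limma, and 3 were higher in naive mice, or 0 without treated mouse 1 or 3 or vehicle mouse 1, 2 or 5. In DMM 1 basophil gene passed without vehicle mouse 64. Of 5 megakaryocyte genes, 1 was higher in DMM and none in naive mice by edgeR, where 3 had an unadjusted p under 0.05, and without DMM vehicle mouse 64 the DMM count was 4. Sensory neuron markers were lower in DMM in 4 of 7 genes (median -1.37), summing to 1265 to 3626 CPM with AP20187 and 3325 to 6581 with vehicle, and the count was 2 without treated mouse 58, 59 or 60 or vehicle mouse 32 or 33, 6 without vehicle mouse 64 and 0 against mice 63 and 64 alone. In naive mice they summed to 1201 to 4386 and 4557 to 6888 CPM, and no single gene passed by edgeR (2 at an unadjusted p under 0.05), while 1 passed by DESeq2 and 2 by limma on log2(FPKM + 1). The sums of treated and vehicle libraries overlapped in DMM and not in naive mice. The part of these lists in the primary granule result was not tested.

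The genes whose profile over the 19 libraries was most like that of the 6 were found by the root mean square difference of centred log2 CPM from the mean profile of the 6, among 14618 candidates with a mean of at least 1 CPM. They were Hp (0.28), which encodes haptoglobin, Clec5a (0.29), a myeloid lectin receptor, Chil3 (0.30), Cebpe (0.31), Anxa1 (0.33), Lin28a (0.35), and the phagocyte oxidase subunits Ncf1 (0.35) and Ncf4 (0.36), while the median candidate was at 2.19. On the same measure, which uses each member in the mean it is set against, Mpo was at 0.26, Elane at 0.27, Prtn3 at 0.38, Ctsg at 0.40, Fcnb at 0.41 and Ms4a3 at 0.76. Ms4a3 was thus the member least like the others. This likeness is a description of libraries that share the treatment contrast: over the 9 AP20187 libraries alone none of the 8 was among the 8 nearest, and over the 10 vehicle libraries 2 were.

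Surgery was compared next. With vehicle, the 6 genes had higher means in DMM than in naive mice, 1.45-fold (Ms4a3) to 2.61-fold (Prtn3), but the groups overlapped in every gene and the lowest DMM mouse lay below the naive mice in Mpo, Elane, Prtn3, Ctsg and Fcnb. The log2 fold changes were 0.54 (Ms4a3, 95% interval -0.25 to 1.32) to 1.39 (Prtn3, 95% interval -0.02 to 2.80). None of the 6 passed by edgeR (0 at an unadjusted p under 0.05) or by DESeq2 or limma on FPKM, and 0.0% of all genes were called, with 377 of 22778 at an unadjusted p under 0.05. Without vehicle mouse 64 Elane and Fcnb were at -0.050 and -0.14. With mice 32 to 34 alone 5 of the 6 were at -0.10 to -0.59, and with mice 63 and 64 alone Prtn3 passed (2.46, adjusted p 0.0485, edgeR).

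With AP20187, DMM mice had 1.76-fold (Fcnb) to 2.49-fold (Elane) higher means than naive mice. Mice 58 and 62 lay above every naive treated mouse in each gene, and the other 3 lay among them. The log2 fold changes were 0.81 (Fcnb, 95% interval -0.60 to 2.22) to 1.31 (Elane, 95% interval -0.25 to 2.88), with adjusted p of 0.306 to 0.558. None of the 6 passed by edgeR (0 at an unadjusted p under 0.05), DESeq2 or limma, against 0.702% of all genes called by edgeR.

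The effect of AP20187 in DMM minus that in naive mice was tested as an interaction. It was between -0.34 (Ctsg, 95% interval -2.23 to 1.54) and 0.28 (Ms4a3, 95% interval -0.86 to 1.43) on the log2 scale. None of the 6 passed by edgeR (0 at an unadjusted p under 0.05), DESeq2 or limma, and 0.114% of all genes were called. The sign of each depended on the setting, so that no difference between DMM and naive mice in the size of the AP20187 effect could be resolved with these mice, and the intervals allow one of either sign.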

How the data were processed

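Raw integer counts for each gene were deposited, and a second table by the authors paired the same counts with FPKM, which divides by gene length and sequencing depth. Totals of the 2 tables differed by 1 count in 1 library. Per the submitters' processing notes, cutadapt, HISAT2, StringTie and GRCm39 were used, with versions and strand setting not given in the sources used here. Per the labels' protocols, libraries were TruSeq stranded mRNA.

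Counts were tested with edgeR 4.0.16 (R 4.3.3), with TMM scaling, filterByExpr (minimum count 10), 1 quasi-likelihood model of the 4 groups over 19 libraries and Benjamini-Hochberg adjustment over 22778 genes, two-sided, with a threshold of 0.05. The 5 contrasts share groups. The 95% intervals of log2 fold changes use a t quantile with 15 degrees of freedom. Ratios used a prior count of 0.5 and scipy 1.17.1. The fit was checked on simulated data. Alternatives used DESeq2 1.42.0, limma 3.58.1 on log2(FPKM + 1) and log2(FPKM + 0.1), other scalings and filters, and libraries left out.

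The members, lists and tests were chosen with earlier results of these data known. Besides the 6 genes, the naming rule took up to 4 genes per list by mean FPKM and the 8 genes of nearest profile. Prss57, Ctsc, Cst7, Gfi1, Kit, Flt3, Ly6g, Ccr2 and Sox10, and the overlapping genes Plppr3 and Gm11505, fall outside it and were named after their values were seen. Of 16 marker lists, Bpi alone had no entry that could be used here. Proteins were not analysed here.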

Additional observations from a re-analysis of the deposited data

Results flagged for a closer look

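In 3 of the 24 combinations of gene and group with 4 or 5 mice, 1 library stood apart from the rest of its group by more than Dixon's 95% limit. Chance alone flags about 1 in 20 independent combinations, but these share mice, so the count cannot be set against that rate. Values were CPM without a log scale. All 3 flagged were the highest library of DMM with vehicle, mouse 64: Elane at 76.6 CPM, Prtn3 at 52.6 CPM and Fcnb at 46.9 CPM. The gaps to the next mouse took 0.75, 0.75 and 0.77 of the group's range, against a limit of 0.71. The same mouse had the highest erythroid sum of its group, 17722 CPM.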

How the results depend on the processing

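Over all alternatives run, 232 of 234 fits of a primary granule gene between AP20187 and vehicle kept their direction and their call, and the other 2, both of Fcnb, kept the direction only. The number of the 6 genes called was 6 with each DMM mouse left out and 5 to 6 with each naive mouse left out. Of the ratios to Ltf and S100a8, none (0) passed in DMM against vehicle mice 32 to 34 only or against mice 63 and 64 only, where the smallest p possible was 0.0357 and 0.0952, so that these counts say nothing about stability. Ctsg to S100a8 was then 0.77 and 1.12, Prtn3 to S100a8 0.93 and 0.86, Elane to S100a8 0.78 and 0.59, Ctsg to Ltf 0.69 and 0.80, Prtn3 to Ltf 0.86 and 0.53, and Fcnb to Ltf -0.52 and -0.64. Signs of uncalled ratios turned for Ms4a3 against mice 63 and 64 only (0.10 to Ltf, 0.42 to S100a8), and in naive mice with 1 left out for Ctsg to Ltf (-0.03 to 0.64), Prtn3 to Ltf (-0.21 to 0.24) and Ctsg to S100a8 (-0.52 to 0.16). With 1 mouse left out 5 to 7 passed in DMM, and 0 to 0 in naive mice, where the smallest p possible rose too, so that the count says nothing about stability. The differences called in all naive mice then stayed between -0.97 and -2.13. In DMM the ratio lost most often was Prtn3 to Ltf, in 8 of 10 cases with a DMM mouse left out. As all ratios were adjusted together, its call was also lost without naive AP20187 mouse 1 or 3 and with the replicate block. Its difference stayed at 0.73 in these (adjusted p 0.0635 each, exact permutation test). With Ngp and S100a9 as references Fcnb in DMM was lost (-0.26) and Mpo to Ngp gained. With DMM vehicle mice 63 and 64 only, 1 of the 6 genes passed between DMM and naive with vehicle. The share of all genes called in that fit is not given here, so this count has no background to be read against.

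The naive mice 1, 3, 4 and 5 share numbers between treatments, and the deviations of same-numbered mice correlated at 0.01, 0.25, -0.05 and 0.22. Mice 3 and 5 had the highest of all 16 correlations between a treated and a vehicle mouse, and mice 1 and 4 did not correlate best with their own number, so the numbers were not used as pairs. With the replicate block 6 of 6 genes passed in naive mice, as they did for the same mice without it, and 0 of the ratios passed, since the pairing of 4 mice cannot reach the threshold. No paired analysis was possible in DMM because the groups share no numbers.

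Signs of log2 fold changes turned in these cases, none past the threshold but Retnlg with mice 32 to 34 only (adjusted p 0.0238, edgeR); the cause was not tested. Ly6g in DMM was 0.37, 0.46 and 1.16, and Retnlg 0.66, 0.67 and 1.46, by limma on log2(FPKM + 1), on log2(FPKM + 0.1) and by edgeR with vehicle mice 32 to 34 only. With 1 mouse left out they were -0.48 to 0.73 and -0.42 to 0.96. With vehicle mice 63 and 64 only, Cd34 was -0.23, Runx1 0.43 and Slpi -0.30. Between DMM and naive with vehicle, with mice 32 to 34 only, Mpo was -0.34, Elane -0.59, Prtn3 -0.27, Ctsg -0.10 and Fcnb -0.54. With 1 mouse left out Elane was -0.050 to 1.43 and Fcnb -0.14 to 1.31, lowest without vehicle mouse 64. In the interaction Mpo, Prtn3, Ctsg and Fcnb were 0.89, 1.02, 0.75 and 0.77 by limma on log2(FPKM + 1), 0.93, 1.02, 0.73 and 0.83 on log2(FPKM + 0.1), and 1.30, 1.56, 0.94 and 1.35 with vehicle mice 32 to 34 only. With mice 63 and 64 only Elane was -0.87 and Ms4a3 -0.15. With 1 mouse left out the interaction was -0.39 to 0.77 for Mpo, -0.12 to 1.36 for Elane, -0.41 to 1.013 for Prtn3, -0.65 to 0.52 for Ctsg and -0.50 to 0.95 for Fcnb.

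The count of all genes called ran from 3212 to 7677 in DMM and from 994 to 3452 in naive mice when 1 mouse was left out, against 5410 and 2548. By edgeR, DESeq2 and limma on log2(FPKM + 1), 160, 1109 and 1220 genes were called between DMM and naive with AP20187, and 26, 224 and 56 in the interaction. Without TMM scaling the median over all genes moved to -0.12 in DMM and -0.14 in naive mice. No alternative varied the depth.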
